A study of Mus musculus with 2 samples.

Results

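Cystatins and cathepsins were compared between white matter of wild-type (WT) mice and of mice without CD47 (CD47 KO). The set held 10 genes, 3 for protease inhibitors (Cst7, Cst3 and Cstb) and 7 for lysosomal proteases (Ctsb, Ctsc, Ctsd, Ctsh, Ctsl, Ctss and Ctsz), out of 18193 genes on the array. The members were taken by gene symbol in the platform annotation, which gave 21 of the 45037 probe sets. The tissue, optic tract together with optic nerve, came from male mice housed free of specific pathogens, at 13 to 15 weeks of age for WT and 12 to 15 weeks for CD47 KO. The CD47 KO mice carried the Cd47 -/- null allele in every cell, and the strain is not given in the labels. RNA of several animals was pooled before hybridisation, so that each genotype rests on 1 pool and 1 array. The series description counts 5 WT and 4 CD47 KO animals, and the labelling protocol states the reverse.

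Cathepsins are proteases that work mainly in the acid interior of endosomes and lysosomes, where they break down proteins taken up by phagocytosis, endocytosis or autophagy. Most are cysteine proteases, and cathepsin D is an aspartic protease. They are made as inactive proenzymes, and many of them reach the lysosome through mannose 6-phosphate receptors. Cystatins are tight, reversible inhibitors of the cysteine cathepsins and do not inhibit cathepsin D. In the brain, microglia are rich in several cathepsins, and cystatin C, the product of Cst3, is made in large amounts by astrocytes and by the choroid plexus. CD47 is a membrane protein that binds SIRPα, a receptor by which microglia and macrophages are restrained.

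RefSeq (GRCm38.p6) gave a start site window for 7 of the 10 members: Cst3, Cst7, Ctsc, Ctsd, Ctsl, Ctss and Ctsz. The 250 bases before the start were searched on both strands for CACGTG (the E-box core), TCACGTGA (an extended E-box that contains CACGTG, as in the element bound by TFEB), AGGAAG (an ETS family core), GGGCGG (the GC box bound by Sp1) and TGANTCA (the AP-1 site). The windows of Cst7, Ctsd and Ctsz are shown because these genes had the largest differences between the genotypes described below, and that of Cst3 because it had the smallest. Each ends directly before the outermost annotated start of its gene, runs 5′ to 3′ on the strand of the gene, and has the motifs found in capitals. Cst7 lies at chr2:150570165-150570414 on the plus strand, and Ctsd at chr7:142387828-142388077, Ctsz at chr2:174439040-174439289 and Cst3 at chr2:148875513-148875762 on the minus strand.
Cst7: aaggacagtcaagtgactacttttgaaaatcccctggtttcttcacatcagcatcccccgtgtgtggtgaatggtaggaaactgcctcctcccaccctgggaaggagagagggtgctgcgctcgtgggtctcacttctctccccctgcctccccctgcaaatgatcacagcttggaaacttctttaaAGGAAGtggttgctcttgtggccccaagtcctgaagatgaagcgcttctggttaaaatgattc
Ctsd: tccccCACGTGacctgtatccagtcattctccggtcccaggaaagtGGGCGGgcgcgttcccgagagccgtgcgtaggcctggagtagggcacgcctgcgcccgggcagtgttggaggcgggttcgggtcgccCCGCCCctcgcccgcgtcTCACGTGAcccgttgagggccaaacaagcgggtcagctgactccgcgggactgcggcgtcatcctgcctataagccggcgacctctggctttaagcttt
Ctsz: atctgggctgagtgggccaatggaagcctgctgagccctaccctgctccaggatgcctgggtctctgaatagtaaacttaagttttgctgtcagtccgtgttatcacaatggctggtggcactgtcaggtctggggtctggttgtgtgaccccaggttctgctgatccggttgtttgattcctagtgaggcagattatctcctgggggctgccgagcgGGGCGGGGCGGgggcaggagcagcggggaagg
Cst3: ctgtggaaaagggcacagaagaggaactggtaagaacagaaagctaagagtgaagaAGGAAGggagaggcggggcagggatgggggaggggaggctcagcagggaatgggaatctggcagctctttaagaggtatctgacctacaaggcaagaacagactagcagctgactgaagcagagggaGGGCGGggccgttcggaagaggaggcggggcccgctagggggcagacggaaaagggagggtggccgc

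The Cst7 window held AGGAAG once, at positions -63 to -58 from the start, and none of the other motifs. The Ctsd window held CACGTG at -245 to -240 and again at -98 to -93, where it lies inside the longer TCACGTGA at -99 to -92. It also held the GC box on each strand. Ctsz had GGGCGG at -32 to -27 and, sharing a base with it, at -27 to -22, and Cst3 had AGGAAG at -194 to -189 and GGGCGG at -67 to -62. Of the windows not shown, Ctsl had CACGTG, Ctss had GGGCGG, and Ctsc had AGGAAG on the minus strand and the GC box. The Ctsl and Ctsc windows end before a start that is not the outermost annotated start of the gene. Of all 32851 windows of this length, 6.02% held CACGTG, 0.785% TCACGTGA, 29.5% AGGAAG, 32.7% GGGCGG and 6.75% TGANTCA, the last of which was in no window of a member. A match describes letters only, and binding was not measured.

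Expression was measured as the MAS5 signal, the brightness that the authors' software gives to a probe set, on a linear scale. Signals under 106.4, the median over both arrays, were raised to this floor, and a ratio is only a bound where WT or CD47 KO lies there. A gene is represented by its brightest probe set unless stated otherwise. Signals of different probe sets do not share a scale, so that genes were compared by the difference between the arrays and not by their levels. No test was possible with 1 array per genotype. The nearest to a measure of error was the disagreement among probe sets that share a gene, whose log2 ratios differed with an SD of 0.36 over 11653 pairs, and by less than 0.74 in 95% of the pairs. This corresponds to an SD of 0.26 for the log2 ratio of a single probe set. It includes no variation between mice or between hybridisations. As a check of the labels, Cd47 itself went from 3928 to 1346 by its brightest probe set, and the 3 Cd47 probe sets measured in both genotypes kept 34.3% to 39.5% of the WT signal. For Gapdh, the 3' signal divided by the 5' signal, a sign of RNA integrity, was 1.05 in WT and 1.13 in CD47 KO, and for Actb it was 2.42 and 2.19.

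All 10 members had a higher signal in CD47 KO than in WT white matter, and 4 of them were over 2-fold higher, namely Cst7, Ctsd, Ctsz and Ctsc. Among all 12473 genes that passed the floor in either genotype, 1.21% were over 2-fold higher and 0.818% over 2-fold lower. The log2 ratio (CD47 KO divided by WT) had a median of 0.84 for the members and -0.02 for all these genes, of which 46.8% lay above 0. All members but Cst7 were among the 2898 brightest genes, of which 29 were over 2-fold higher, 6 over 2-fold lower, and 50.2% above 0. By single probe sets, the signal was higher in CD47 KO for all 21 without the floor, 19 reached the floor in at least 1 array, and 8 of these were over 2-fold higher, against 1.06% of all 23846 such probe sets higher and 0.751% lower. The median log2 ratio was 0.86 for the 19 probe sets and -0.01 for all.

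**Figure D1:**
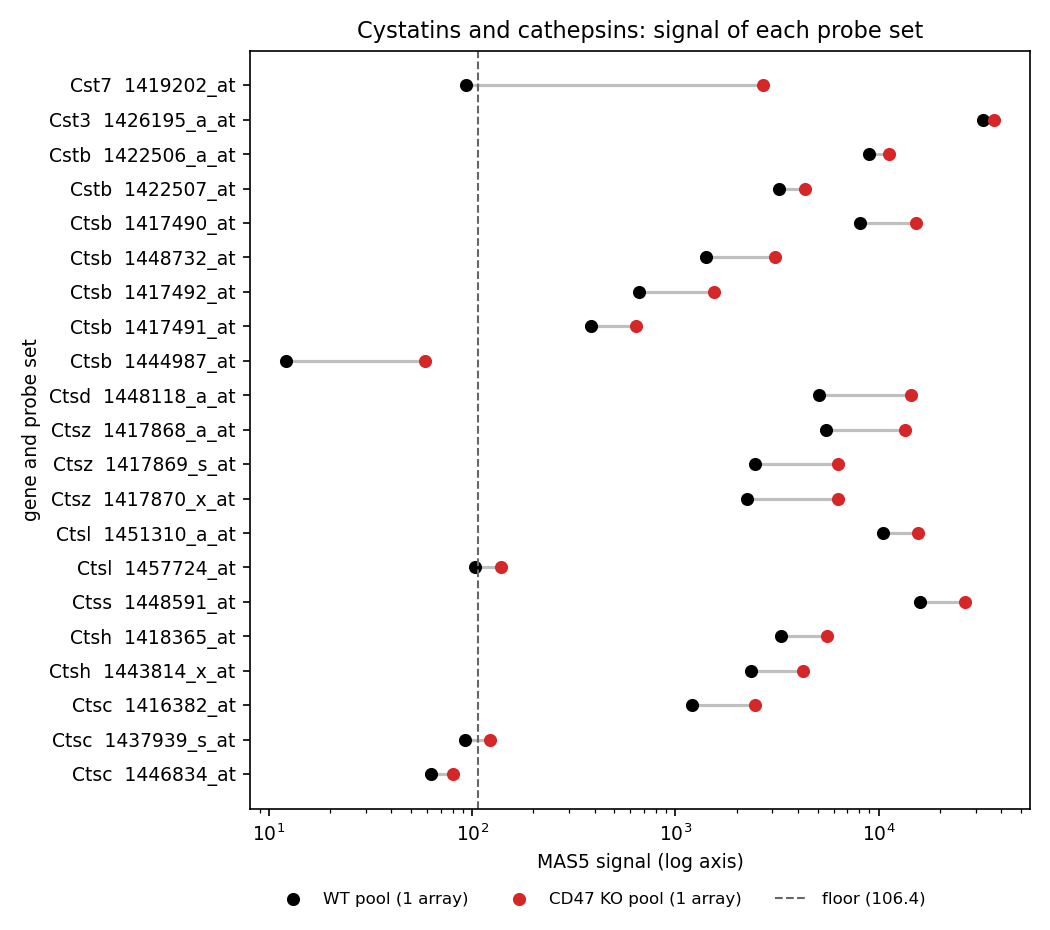
MAS5 signal (horizontal, log axis) of the 21 probe sets of the members (vertical), with 1 black point for the WT pool and 1 red point for the CD47 KO pool and a dashed line at the floor of 106.4. The red point lies to the right of the black one in all 21, by the longest distance among probe sets that reach the floor for Cst7 (92.9 to 2688) and the shortest for Cst3 (32507 to 37064).

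Among the inhibitors, the difference was concentrated in Cst7, and Cst3 and Cstb differed little. Cst7 encodes cystatin F, an inhibitor made by immune cells that, unlike cystatin C, is sent to lysosomes, where it is processed to a form that acts on cathepsin C. Its probe set gave 92.9 in WT, just under the floor, and 2688 in CD47 KO. WT thus stood at the 46.9th percentile of its array, among signals close to background, and CD47 KO at the 93.8th percentile of its own. The difference was at least 25.3-fold (log2 ratio at least 4.66). A higher floor, at the 60th percentile of the signals, lowered this bound to 14.4-fold, and the signals themselves differed 28.9-fold. The log2 ratio of Cst7 ranked 1 of 12473 genes. Without a floor it ranked 6, since ratios between signals near background then enter the ranking. The study had singled out Cst7 on these samples, so that its place here is not independent evidence.

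Cst3 encodes cystatin C, the secreted inhibitor that is abundant in cerebrospinal fluid. Its signal went from 32507 in WT to 37064 in CD47 KO, 1.14-fold higher (log2 ratio 0.19), less than the SD of 0.26 of a single probe set. Both signals lay at the 99.9th percentile of their arrays. Cstb encodes cystatin B, a stefin that stays in the cytosol and nucleus and whose loss in humans causes a progressive myoclonus epilepsy. It went from 8975.5 in WT to 11187 in CD47 KO (1.25-fold) by its brightest probe set and from 3244.5 to 4345 (1.34-fold) by the other. The log2 ratios of Cstb, 0.32 and 0.42, were both above that SD, which includes no variation between mice or hybridisations. Cstb ranked 1425 and Cst3 2563 among the 12473 genes.

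All 7 cathepsin genes were higher in CD47 KO, with log2 ratios from 0.58 to 1.51 and a median of 0.92, and 3 of them were over 2-fold higher. The largest difference was in Ctsd, the aspartic protease cathepsin D, whose inherited loss causes a neuronal ceroid lipofuscinosis. It went from 5083 in WT to 14496 in CD47 KO, 2.85-fold higher (log2 ratio 1.51). Ctsd ranked 44 among the 12473 genes and is the cathepsin of this set that cystatins do not inhibit.

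Ctsz encodes cathepsin Z, also called cathepsin X, which removes single residues from the carboxyl end of proteins. All 3 of its probe sets were over 2-fold higher. They went from 5479.6 to 13476 (2.46-fold), from 2469 to 6337 (2.57-fold) and from 2257 to 6294 (2.79-fold). Of these, 2 carry the suffixes that mark possible cross-hybridisation, and the brightest does not. The log2 ratios of the 3 spanned only 0.18.

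Ctsc encodes cathepsin C, or dipeptidyl peptidase 1, which removes dipeptides from the amino end and activates granule proteases of immune cells. The brightest probe set went from 1204.5 in WT to 2472 in CD47 KO, 2.05-fold higher, just over the threshold. The other probe sets were dim. One went from 91.6, under the floor, to 122.6 (at least 1.15-fold) and the third from 62.5 to 80.0, under the floor in both arrays. By the median over the probe sets that reach the floor, Ctsc was at least 1.54-fold higher and no longer over 2-fold.

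Ctsb encodes cathepsin B, an endopeptidase that also trims the carboxyl end, and was measured by 5 probe sets that stood on both sides of the threshold. The brightest went from 8113 in WT to 15340.0 in CD47 KO (1.89-fold), and the next from 1416.5 to 3077 (2.17-fold). The remaining probe sets above the floor went from 664 to 1555 (2.34-fold) and from 385 to 637 (1.65-fold). All 4 were thus higher in CD47 KO, with log2 ratios that spanned 0.50, and 2 were over 2-fold. The last went from 12.1 to 58.7, under the floor in both arrays. By the median over its probe sets the log2 ratio of Ctsb was 1.02, over 2-fold.

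The other cysteine cathepsins were higher by less than 2-fold. Ctss encodes cathepsin S, which keeps its activity at neutral pH, is made by microglia and macrophages, and trims the invariant chain of MHC class II. Its only probe set went from 15932 to 26462 (1.66-fold, log2 ratio 0.73). Ctsh, for the aminopeptidase cathepsin H, went from 3305 to 5574 (1.69-fold) by its brightest probe set. The second probe set, marked for possible cross-hybridisation, went from 2344 to 4249.8 (1.81-fold). Ctsl encodes the endopeptidase cathepsin L and had the smallest difference of the cathepsins in this set. It went from 10448 to 15584 (1.49-fold) by its brightest probe set and from 102.7, under the floor, to 138.9 (at least 1.31-fold) by the other.

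In the order of the log2 ratios, Cst7 (at least 4.66) was followed by Ctsd (1.51), Ctsz (1.30), Ctsc (1.04), Ctsb (0.92), Ctsh (0.75), Ctss (0.73), Ctsl (0.58), Cstb (0.32) and Cst3 (0.19). Cst7 stood apart from Ctsd by 3.15, well over the SD of 0.36 between probe sets of the same gene. Each other neighbour in the order differed from the next by 0.26 or less, below that SD, so that the order among the cathepsins is not resolved step by step.

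**Figure D2:**
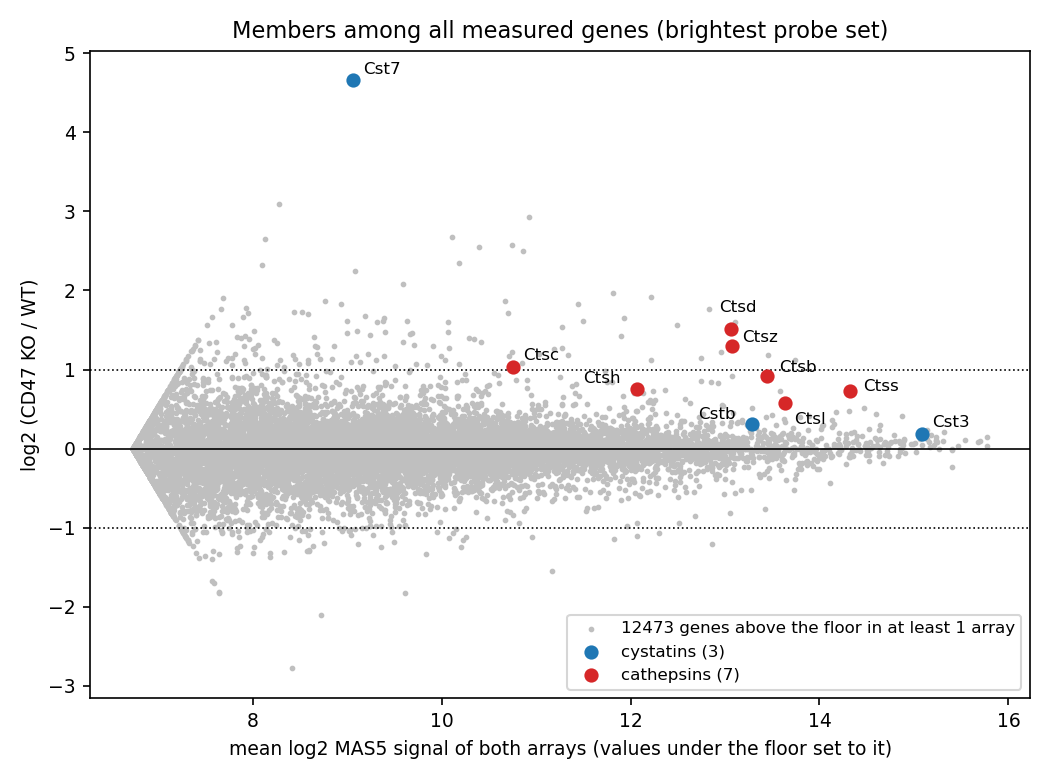
Log2 of CD47 KO divided by WT (vertical) against the mean log2 MAS5 signal of both arrays (horizontal) for 12473 genes (grey), the 3 cystatins (blue) and the 7 cathepsins (red), with dotted lines at 2-fold. The cathepsins lie between 0.58 and 1.51, above most genes of like brightness, Cst7 lies alone at 4.66, and Cst3 lies at 0.19.

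**Figure D3:**
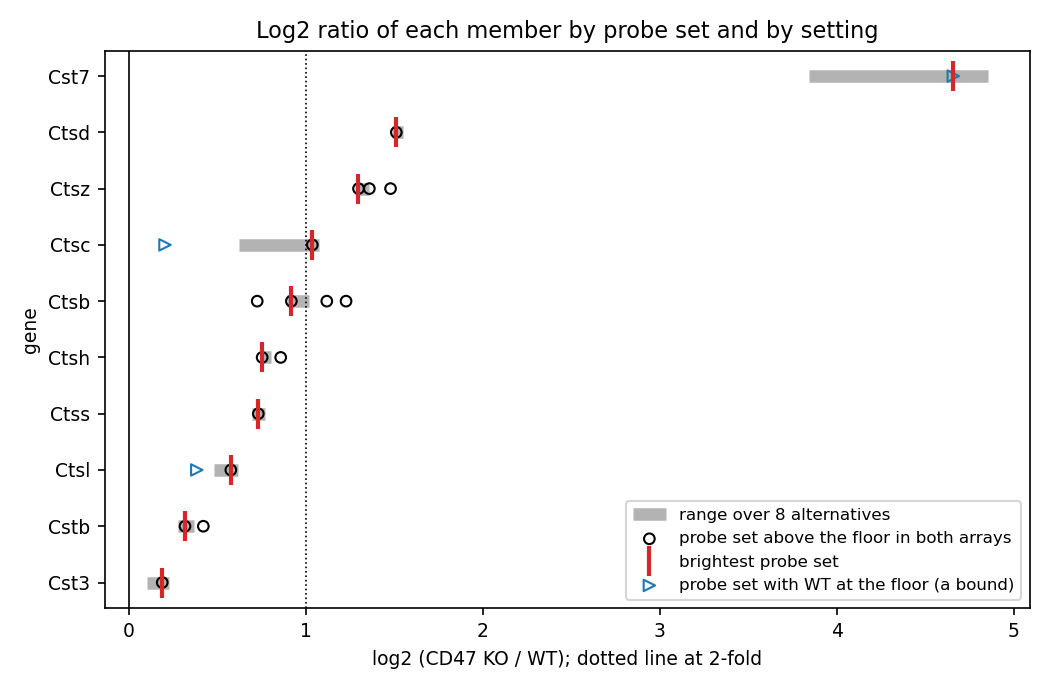
Log2 of CD47 KO divided by WT (horizontal) for each member (vertical), with open circles for probe sets measured in both genotypes, triangles for bounds, a red bar for the brightest probe set and a grey band for the range over 8 alternative settings. Every band lies above 0, and only those of Ctsc (0.62 to 1.08) and Ctsb (0.90 to 1.02) cross the dotted line at 2-fold.

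In the gene order of the reference assembly, none of the nearest measured neighbours of the members over 2-fold had a value past 2-fold, with 3 of the 8 known only as bounds. Apmap, directly after Cst7, went from 1641 in WT to 1662 in CD47 KO (1.01-fold). Zfp937, the nearest measured gene on its other side, had a log2 ratio of -0.33. Nelfcd, beside Ctsz, was 1.13-fold higher and Tubb1, on the other side of Ctsz, 1.58-fold higher. Beside Ctsc, Grm5 had a log2 ratio of -0.52, and Rab38 one of -0.63 as a bound. Next to Ctsd, Ifitm10 and Syt8 were at least 1.40-fold and 1.19-fold higher, with signals of 149 and 126.9 in CD47 KO that hardly passed the floor.

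Other members of both families were mostly too dim to compare. Of 13 further cystatins and stefins with a value, 12 were under the floor in both arrays, and the last, Fetub (fetuin B), went from 112.2 to 105.1. Of 18 further cathepsin genes 5 passed the floor, and their log2 ratios had a median of 0.21, with 3 above 0 and 2 below. Ctse, for the aspartic protease cathepsin E of endosomes, was 2.15-fold higher (143.9 to 310). Under the higher floor this became a bound of at least 1.66-fold. Ctsa encodes the serine carboxypeptidase that also protects lysosomal β-galactosidase and neuraminidase. By its brightest probe set it was 1.80-fold higher (2576 to 4633), and by the other 1.10-fold. The median over the 2 had a log2 ratio of 0.49. Ctsk, the collagen-degrading cathepsin of osteoclasts, and Ctsf had log2 ratios of -0.12 and -0.15, and Ctso was 1.16-fold higher. The cathepsins outside the set thus lay on both sides of 0. Ctsk, Ctsf and Ctso differed from 0 by less than the SD of 0.26 of a single probe set.

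Of the other lysosomal and membrane peptidases, 8 passed the floor, with a median of 0.15, 4 above 0, 4 below, and none over 2-fold. Lgmn, the asparaginyl endopeptidase legumain that processes several cathepsins, was 1.45-fold higher (3246 to 4693). Dpp4, a dipeptidyl peptidase of the cell surface, had a log2 ratio of -0.49. The genes that deliver proteases to lysosomes had a median of 0.02 over 15 members, 8 above 0, 7 below, and none over 2-fold, with log2 ratios from -0.26 to 0.33. M6pr and Igf2r, the mannose 6-phosphate receptors, were 1.04-fold and 1.02-fold higher. Psap, for prosaposin, was 1.26-fold higher (11343 to 14281), Gga1, for a sorting adaptor, 1.23-fold, and Scarb2, for the lysosomal receptor LIMP-2, 1.10-fold.

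Transcription factors known to act on lysosomal or myeloid genes had a median of 0.08 over 7 members. Irf8 was the only one over 2-fold, at 3.05-fold (292 to 890), and both its probe sets were over 2-fold. Tfeb, the regulator that binds the extended E-box, was 1.91-fold higher at low signal (203 to 388), whereas Tfe3, its relative, had a log2 ratio of -0.23. Mitf was 1.29-fold higher and Spi1, which encodes the myeloid ETS factor PU.1, 1.05-fold (123.1 to 129.7). Both signals of Spi1 hardly passed the floor of 106.4.

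Other inhibitors lay on both sides of 0, with 9 members above the floor, 4 with a ratio above 0, 5 below, and a median of 0.00. A2m, for the broad inhibitor α2-macroglobulin, was 2.65-fold higher (768 to 2034.5), and Serpina3n, known from reactive astrocytes, 2.40-fold (1504 to 3617). Timp2, an inhibitor of metalloproteinases rather than of cathepsins, was 1.78-fold higher by one probe set, the brightest, and 1.07-fold by another. Ctla2a and Ctla2b, a related pair that resemble the propeptide of cathepsin L, stood in opposite directions with log2 ratios of -0.78 and 0.77. Serpinb6a and Serpinb1a had log2 ratios of 0.00 and -0.38.

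Of the 11 genes for granule enzymes, most of them serine proteases that cathepsin C matures, 10 were under the floor in both arrays. The last was Mpo, for myeloperoxidase, at 110.7 in WT, just over the floor, and 11.0 in CD47 KO. Its difference is only a bound, of at least 1.04-fold lower. Of 11 measured genes whose products cathepsins cut, 6 had a ratio above 0 and 5 below, with a median of 0.06. Tlr7, a receptor of endosomes, was 2.47-fold higher (169 to 417). Grn, for the progranulin that lysosomal proteases split into granulins, had a fold of 1.80 by the brightest probe set, and 2 of its 3 probe sets were over 2-fold. App, for the amyloid precursor protein, was 1.04-fold higher. Cd74, the invariant chain cut by cathepsin S, went from 859 to 721, and the class II genes lay on both sides of 0, with log2 ratios of -0.38 for H2-Aa, -0.45 for H2-Eb1, 0.26 for H2-Ab1 and 0.20 for H2-DMa.

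**Figure D4:**
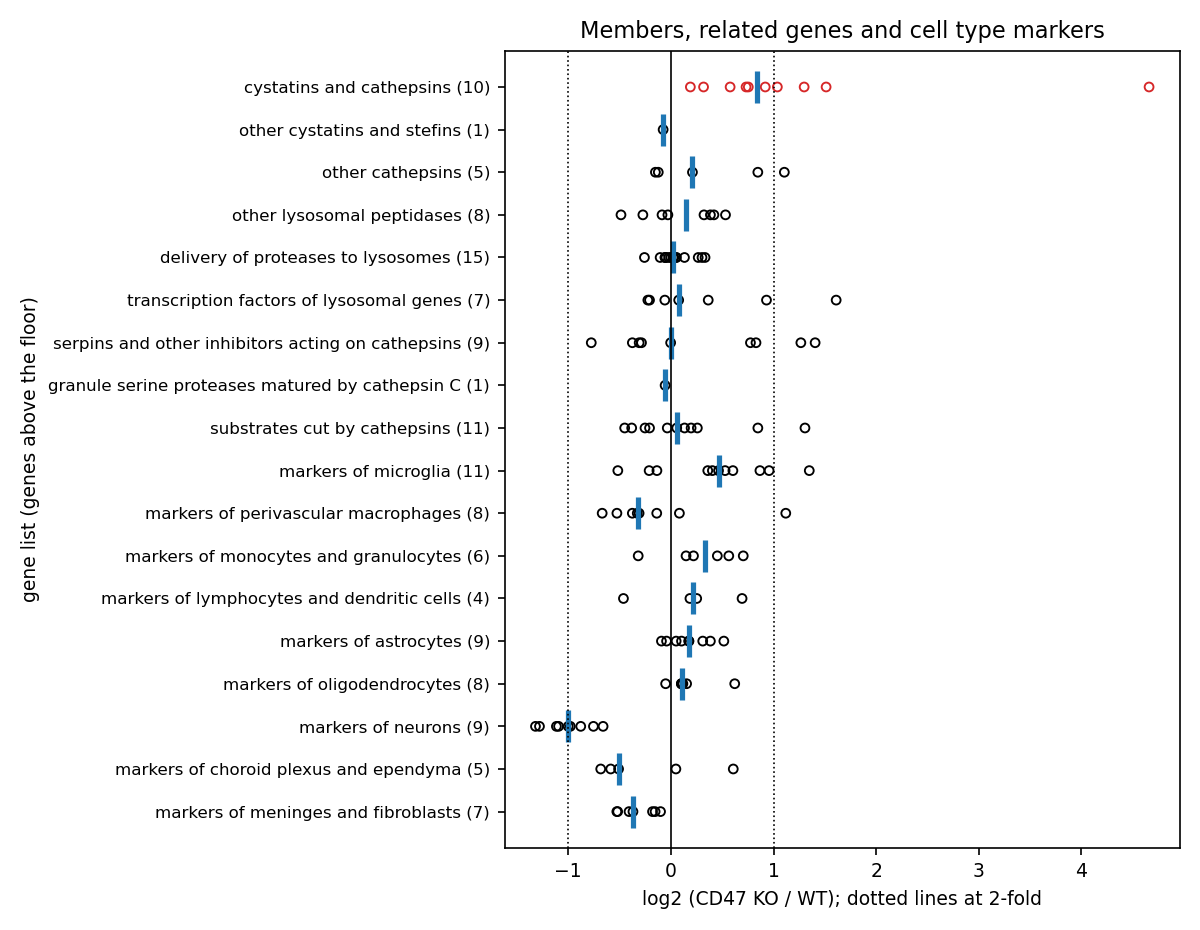
Log2 of CD47 KO divided by WT (horizontal) for the measured genes of each list (vertical, number of genes in brackets), with the cystatins and cathepsins in red, other lists in black, a blue bar at the median of each list and dotted lines at 2-fold. The median of the 10 members (0.84) lies to the right of those of all other lists, of which the microglial markers are next (0.46) and the neuronal markers lie furthest to the left (-1.0).

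Markers of microglia, other immune cells, astrocytes, oligodendrocytes, neurons, choroid plexus and ependyma, and meninges and fibroblasts were set beside the members. No list of markers for vessel cells was made. Summed signals of a list are given only to compare WT with CD47 KO and weigh bright probe sets most. Microglial markers had 11 measured genes, none under the floor, of which 8 had a ratio above 0 and 3 below, with a median of 0.46 and signals that summed to 25380 (WT) and 34570 (CD47 KO). Cx3cr1 was 2.55-fold, Aif1 1.94-fold and Csf1r 1.38-fold higher (15765 to 21740), whereas Tmem119 had a log2 ratio of -0.52. By the brightest probe sets, 8 of the 10 cystatins and cathepsins had a log2 ratio above that median and 4 above that of Aif1. Only Cst7 and Ctsd lay above Cx3cr1, the highest of these markers. Several members lay closer to a marker than the SD of 0.36 between probe sets of a gene. Ctsz (1.30) lay just below Cx3cr1 (1.35), but its other probe sets (1.36 and 1.48) lay above. Ctsb (0.92) lay just below Aif1 (0.96) and Ctsc (1.04) just above. The median was the value of Csf1r, whose probe sets ranged from 0.46 to 0.73. The counts at these cuts are therefore not resolved. In RNA of whole tissue, more cells of a type and more RNA per cell cannot be told apart, and the part of microglial numbers in the difference of the members was not tested.

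Of 8 markers of perivascular macrophages, all above the floor, 6 had a ratio below 0, with a median of -0.32 and signals summing to 4874 in WT and 4169 in CD47 KO. Ms4a7 was 2.17-fold higher, against a log2 ratio of -0.67 for Cd163 and -0.53 for Pf4. Monocyte and granulocyte markers had a median of 0.34 over 6 genes above the floor, 5 of them higher, with signals summing to 3379 in WT and 4004 in CD47 KO over 8 genes. Among them Ngp was 1.63-fold, Ltf 1.48-fold and S100a8 1.11-fold higher, and Ccr2 and Cxcr2 stayed under the floor in either genotype. Markers of lymphocytes and dendritic cells summed to 637 in WT and 754 in CD47 KO over 7 genes, with a median of 0.22 over the 4 that passed the floor, 3 of them above 0, and with Cd3e, Ms4a1 and Flt3 under it. Nkg7 was at least 1.62-fold higher, Cd8a had a log2 ratio of -0.46 as a bound, and Zbtb46 was 1.14-fold higher, with log2 ratios from -0.19 to 0.22 over the alternatives.

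Astrocyte markers had a median of 0.17 over 9 genes, with 7 above 0 and signals summing to 142200.0 in WT and 157700.0 in CD47 KO. Gfap was 1.43-fold, Sox9 1.31-fold and Clu 1.13-fold higher. Oligodendrocyte markers had a median of 0.11 over 8 genes, 7 above 0, with signals summing to 208900.0 in WT and 226800.0 in CD47 KO. Opalin was 1.54-fold and Mobp 1.11-fold higher by the brightest probe set. The probe sets of Mobp lay on both sides of 0, from -0.225 to 0.153. Neuronal markers were below 0 for all 9 genes above the floor, with a median of -1.0, 5 over 2-fold lower, signals summing to 16350.0 in WT and 8448 in CD47 KO, and Slc17a7 under the floor in both arrays. Nefm and Slc17a6 had log2 ratios of -1.32 and -1.28. Snap25, for a synaptic protein, had -0.98 by its brightest probe set and -0.38 by the other. Markers of choroid plexus and ependyma had a median of -0.51 over 5 genes, with 2 above 0 and signals summing to 1961 in WT and 1545 in CD47 KO. In it Ttr was lower (log2 ratio -0.68 by its brightest probe set, -0.68 to -0.11 over all) and Foxj1 1.52-fold higher. Folr1 and Aqp1 were under the floor in both arrays. Markers of meninges and fibroblasts were below 0 for all 7 genes, with a median of -0.37 and signals summing to 42280.0 in WT and 35690.0 in CD47 KO. Aldh1a2 and Col1a1 had log2 ratios of -0.53 and -0.52 and Dcn one of -0.37. The second probe set of Col1a1 gave only -0.02. Neuronal, meningeal, choroid plexus and perivascular macrophage markers thus had medians below 0, opposite in direction to the members. Their part in the values of the members was not tested.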

How the data were processed

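White matter RNA (optic tract and optic nerve), pooled by genotype, was labelled by 3' in vitro transcription and hybridised to Affymetrix Mouse Genome arrays, 1 for each genotype. The authors deposited a linear MAS5 signal intensity for each probe set, made with the Command Console and Expression Console software. Their versions were not given in the sources used here. Each array's trimmed mean was 500.003.

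After 64 control probe sets had been set aside, 45037 remained, of which 34945 had 1 gene symbol, 932 several and 9160 none in the platform annotation. Signals below their 50th percentile were raised to it. A gene's value is that of the probe set with the highest mean log2 signal, and differences over 2-fold were counted. No test was made with 1 array per genotype, whose number limits precision. The brightest genes are the top 25% by mean log2 signal of those above the floor in both arrays. Percentages over all genes serve as background. The members, the 8 further gene lists and the 9 marker lists were chosen with earlier results of these data known. The genes named were all members, each gene of a further list over 2-fold, the 2 with the largest absolute log2 ratio and the brightest of each list, the nearest measured neighbours of members over 2-fold, and Cd47. Other genes were picked with their values in view, for their roles, namely Ctsk, Ctsf, Ctso, M6pr, Igf2r, Scarb2, Tfe3, Spi1, Ctla2a, Ctla2b, Serpinb6a, Serpinb1a, Cd74, H2-Aa, H2-Ab1, H2-Eb1, H2-DMa, Tmem119 and the markers under the floor. Promoter windows were taken from RefSeq, GRCm38.p6. The alternatives were a lower (40th percentile) or higher (60th percentile) floor, no floor, quantile normalisation, centring on the median, loess on brightness, leaving out probe sets marked _x_at or _s_at, and the median over the probe sets of a gene. The steps were tested on simulated data. Python 3.11.15, numpy 2.4.6, pandas 2.3.3 and statsmodels 0.14.6 were used.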

Additional observations from a re-analysis of the deposited data

How the results depend on the processing

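All 10 members kept a log2 ratio above 0 under each of the 8 alternatives. The count of members over 2-fold was 4 under each, with Cst7, Ctsd and Ctsz always among them, while the median over probe sets put Ctsb in the place of Ctsc. The median log2 ratio of the members stayed between 0.77 and 0.87. For Cst7, whose WT signal is near background, the log2 ratio was at least 3.85 with the highest floor, and 4.85, the ratio of the signals themselves, with the lowest floor or none. For probe sets near the floor, signal over background sets the limit. With no floor, 7.07% of all genes were over 2-fold higher, against 1.21%. No paired analysis was possible because each genotype has 1 array, and for the same reason no replicate could be left out.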
